A study of Equus caballus with 14 samples.

Results

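The comparison described here set 5 embryos against 5 samples of pregnant endometrium, all collected 13 days after ovulation, which are 10 of the 14 samples of the series. The members were taken by their sample titles, and the other 4 samples were cyclic endometrium. Pregnant endometrium was a biopsy from a mare that had been inseminated, and the embryos had been flushed from the uterus of pregnant mares. According to the study, these embryos and biopsies came from the same pregnant cycles of the same mares. The main fit was not paired. Cyclic endometrium came from mares left without insemination. According to the methods of the study, the mares were Warmbloods that served in both kinds of cycle, all had received hCG before ovulation, and semen of the same stallion was used, so the embryos shared a sire. The yolk sac fluid had been aspirated and the capsule taken off before the embryonic tissue was stored; the sources used here do not separate membranes from embryo proper. A biopsy likewise mixes epithelium, glands, stroma, vessels and blood cells. In such bulk tissue, fewer cells of a type and less RNA per cell cannot be told apart.

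In the mare, placental attachment comes late, and the early conceptus lies free in the uterine cavity inside an acellular coat, the capsule. It is nourished by histotroph, the secretion of the endometrial glands, which is taken up through the yolk sac. Both tissues can be separated by flushing, so the transcripts of each side can be collected apart from those of the other.

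The deposited count files list Ensembl gene identifiers without symbols, and 0 of their 26740 entries could be paired with a symbol from the RefSeq gene table at hand. Gene names in the supplementary material of the study were not used. Genes are therefore described by class, 4 are named by identifier, and the labelled tissues were not checked against marker genes.

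Depth and evenness differed more among embryos than among biopsies. Embryo libraries 1 to 5 held 44.6, 23.5, 50.8, 240 and 25.9 M counts (M stands for 1000000), and the pregnant endometrium libraries held between 36.6 and 46.3 M. In embryo 1, 3 genes were enough to reach 50% of the counts and 10 genes took 91.7% of them. The remaining genes of that library shared 3.69 M counts. In embryos 2, 3, 4 and 5 the number of genes that reached 50% of the counts was 84, 276, 271 and 121. In pregnant endometrium it lay between 931 and 1029, and in cyclic endometrium between 743 and 1101. The counts of every embryo were thus held by fewer genes than those of any biopsy. Since embryo 1 stood apart, results are given with it and without it.

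**Figure D1:**
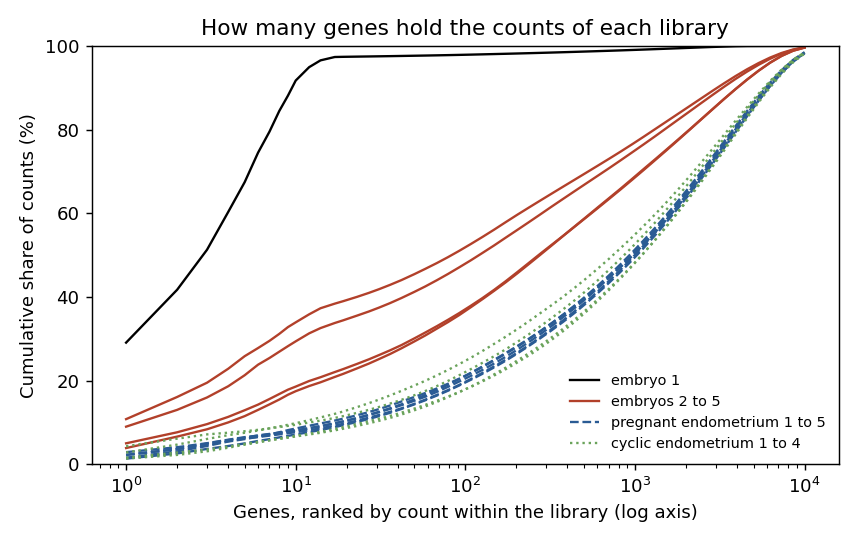
Cumulative share of the counts of a library (vertical axis, %) held by its most counted genes (horizontal axis, number of genes on a log scale), with 1 line for each of the 14 libraries. The line of embryo 1 reaches 91.7% at 10 genes, those of embryos 2 to 5 lie between 17.5% and 33.9% there, and the endometrium lines lie lowest.

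To find out how far the transcripts of the embryo differ from those of the surrounding uterus, read counts were compared between embryos and pregnant endometrium. A gene was tested when its level exceeded 4 CPM (counts per 1000000, on the TMM scale described next) in at least 4 of the 10 samples. This held for 11244 of 26740 genes. A further 6224 genes had no counts in any of the 10 libraries and 9272 had counts but remained below the filter. Of the tested genes, 7710 passed on both sides, with at least 4 libraries each, 1025 passed through the embryos alone, 2384 through the endometrium alone and 125 through neither by itself. A gene that passed through a single side was selected for its level there, which favours its call. The filter limit itself ran through a populated range, since the fourth highest of the 10 values was between 4 and 5 CPM for 415 tested genes and between 3 and 4 CPM for 456 genes left out.

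All CPM values are scaled by TMM factors, which set the bulk of genes level between libraries. The factors were between 1.95 and 2.02 in pregnant endometrium and between 0.843 and 1.16 in embryos 2 to 5. In embryo 1 the factor was 0.0315, so 1 count there stands for 0.713 scaled CPM, against 0.00364 to 0.0507 in the other embryos and 0.0108 to 0.0137 in pregnant endometrium.

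The embryo and the endometrium differed in a large part of the genes tested. By the edgeR likelihood ratio test, requiring more than a 2-fold change and an adjusted p below 0.05, 55.8% of the tested genes were called. On counts simulated for 11244 genes with 200 changed, 7758 genes were tested and 14.9% of the 175 calls of this test were false. Far more genes were called here, so that share does not carry over. With the quasi-likelihood test 50.5% were called, with the replicate number as a block as well 42%, with library size 44.1%, and without a filter 46.7% of a larger set. Genes higher in the embryo made up 27.1% (3052 genes) and genes higher in the endometrium 28.6% (3220 genes). Without embryo 1, 11810 genes were tested and 59% were called, 27.2% as higher in the embryo and 31.8% as higher in the endometrium. With library size in place of TMM factors, 754 genes were higher in the embryo and 4558 in the endometrium, so the balance of both directions, 48.7% of calls higher in the embryo with TMM and 14.2% without, rests on the scaling.

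Large differences were more often on the endometrial side. Among called genes, 1727 were more than 4-fold higher in the embryo (15.4% of the tested genes) and 2062 were more than 4-fold higher in the endometrium (18.3%). A difference of more than 16-fold was found for 541 genes on the embryonic side (4.81%) and for 1033 genes on the endometrial side (9.19%). The difference between both sides in these numbers was not tested, and without scaling factors the split moves as given above. The levels of the 5 embryos and the 5 endometrium samples did not overlap for 5433 genes (48.3%).

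Each tested gene was then placed in 1 of 6 classes. A restricted gene was called, was over 4 scaled CPM in at least 4 of the 5 libraries of its own side and was under 0.5 scaled CPM in at least 4 of the 5 libraries of the other. A biased gene was called without meeting these limits. A gene that was not called was shared within 2-fold when the 95% interval of its log2 change lay between -1 and 1, and otherwise shared but not settled. Since the measured levels chose the classes, their sizes and levels are descriptive.

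Restriction to a single side was the exception. The embryo-restricted class held 202 genes, 1.80% of those tested, and the endometrium-restricted class held 569 genes or 5.06%. The biased classes were far larger, with 2850 genes (25.3%) on the embryonic and 2651 genes (23.6%) on the endometrial side. Shared within 2-fold were 641 genes (5.70%), and 4331 genes (38.5%) were not settled. Without embryo 1 the classes held 187 embryo-restricted, 3030 embryo-biased, 3068 endometrium-biased and 684 endometrium-restricted genes. Without embryo 2, 3, 4 or 5 the embryo-restricted class held 80, 80, 78 and 81 genes, since a gene high in embryos alone then needs embryo 1 to pass the filter.

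The largest shift without embryo 1 was within the shared genes. The class shared within 2-fold rose from 641 to 2585 genes and the class not settled fell from 4331 to 2256, while the common dispersion of the fit was 0.302 with embryo 1 and 0.0968 without it. The number within 2-fold also fell, to between 350 and 371 when any 1 pregnant endometrium sample was left out, to 315 with the replicate number as a block and to 0 with library size. Of the 4331 genes not settled with all embryos, 1837 lay within 2-fold without embryo 1, 406 were embryo-biased, 382 endometrium-biased, 5 endometrium-restricted and 1701 were still not settled. Of the 641 genes within 2-fold, 619 kept their class. Of the 202 embryo-restricted genes 152 kept theirs, 48 became embryo-biased and 2 were not tested, and of the 569 endometrium-restricted genes 515 kept theirs and 54 became endometrium-biased. Only 2 genes turned from embryo-biased to endometrium-biased between the fits with and without embryo 1, and no gene turned the other way.

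**Figure D2:**
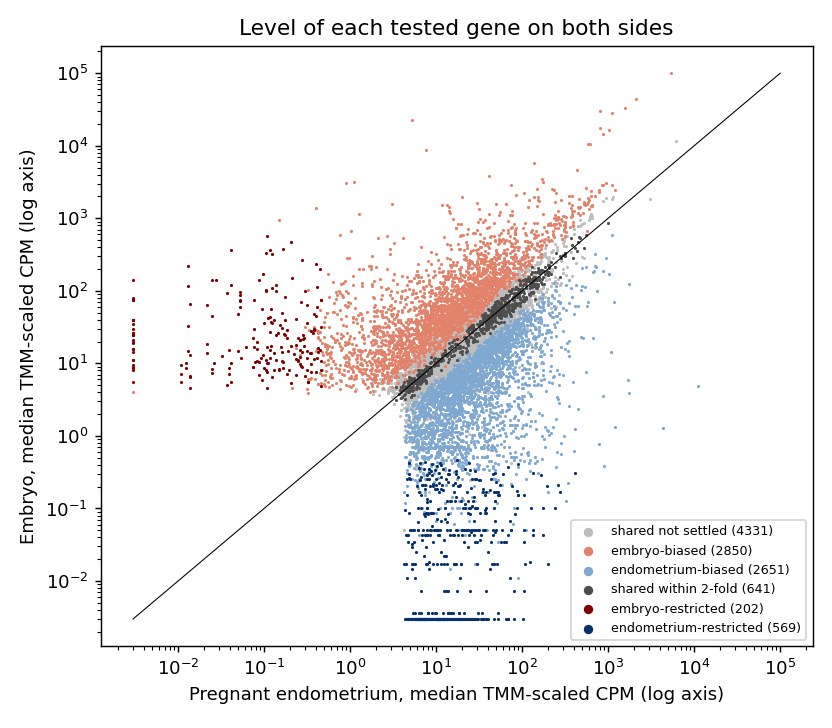
Median TMM-scaled CPM of each of the 11244 tested genes in the 5 embryos (vertical axis, log scale) against the 5 pregnant endometrium samples (horizontal axis, log scale), coloured by class, with the line of equal levels and with values under 0.003 drawn at 0.003. Biased genes lie on both sides of the line, the 202 embryo-restricted genes form the left margin and the 569 endometrium-restricted genes the lower margin.

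The restricted genes were separated by large factors. The median log2 difference of the embryo-restricted class was 7.43 (quartiles 6.19 and 10.03), and 158 of its 202 genes differed more than 64-fold. In the endometrium-restricted class the median was -8.02 (quartiles -10.36 and -6.21), and 443 of 569 genes differed more than 64-fold. Fitted values of genes with no counts on 1 side depend on the prior count of the fit. The medians of the biased classes were 2.11 and -2.21, with 340 of 2850 and 474 of 2651 genes past 16-fold.

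Restricted transcripts were of modest level on their own side. The mean level of an embryo-restricted gene in embryos had a median of 23.0 scaled CPM (quartiles 11.1 and 48.6), against 64.1 for embryo-biased genes. Endometrium-restricted genes had a median of 12.6 scaled CPM in pregnant endometrium (quartiles 8.07 and 23.8), against 27.1 for endometrium-biased genes. On the other side, embryo-biased genes still had a median of 13.7 scaled CPM in endometrium, and 2132 of them were over 4 CPM in at least 4 libraries of both sides. Endometrium-biased genes had a median of 4.33 scaled CPM in embryos, and 1144 were over 4 CPM on both sides. In all, with factors recomputed on the tested genes, 7699 genes (68.5% of those tested) were over 4 CPM on both sides, 970 in embryos alone and 2449 in endometrium alone.

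Few restricted genes lacked counts on the other side altogether. Of the 202 embryo-restricted genes, 1 had no counts in all 5 endometrium samples. At least 1 count was found for 176, 156, 186, 157 and 160 of them in pregnant endometrium 1 to 5, and at least 10 counts for between 91 and 109. Of the 569 endometrium-restricted genes, 46 had no counts in all 5 embryos. At least 1 count was found for 157, 325, 312, 399 and 314 of them in embryos 1 to 5. The highest number belonged to embryo 4, the deepest library, and the lowest to embryo 1, the library with fewest counts outside its leading genes. The class limit was crossed by a populated range of levels too. Taking the fourth lowest of the 5 values on the low side, 31 embryo-restricted genes lay between 0.4 and 0.5 scaled CPM and 25 embryo-biased genes between 0.5 and 0.6, and on the endometrial side the numbers were 57 and 67. With a limit of 0.1 scaled CPM, 68 genes were embryo-restricted and 297 endometrium-restricted, and with a limit of 1 they were 312 and 851.

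Embryo 1 had part of the embryo-restricted repertoire. It had at least 1 count for 140 of the 202 genes, and 83 were over 4 scaled CPM. In embryos 2 to 5, all 202 had at least 10 counts, and between 200 and 202 were over 4 scaled CPM. The class required over 4 scaled CPM in at least 4 of the 5 embryos. A gene not over 4 in embryo 1 thus had to be so in all the others, and this contrast follows largely from the class limits. Embryo and endometrium levels did not overlap for 140 of the 202 embryo-restricted genes (69.3%) and for all 569 endometrium-restricted genes, against 48.3% of all tested genes, although the classes were chosen on the same libraries. The first number equals that of genes with at least 1 count in embryo 1. A gene without counts there cannot lie above the endometrium, and the overlap was not computed without embryo 1.

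The share of counts taken by each class differed from its share of genes. Embryo-biased genes, 25.3% of those tested, accounted in embryos 1 to 5 for 99.0%, 77.4%, 69.2%, 68.5% and 75.8% of all counts. In pregnant endometrium 1 to 5 the same genes took 22.6%, 22.3%, 20.9%, 23.1% and 25.2%. Every embryo was above every endometrium sample, a direction fixed by the choice of the genes. The mean was 72.7 ± 4.51% in embryos 2 to 5 (SD, n = 4), 78.0 ± 12.4% in all embryos (SD, n = 5) and 22.8 ± 1.58% in pregnant endometrium (SD, n = 5). The 10 genes that dominate embryo 1 all belonged to this class. In embryos 2 to 5 they made up 33.2%, 13.7%, 14.8% and 27.5% of all counts, and in pregnant endometrium between 1.68% and 3.72%. When they were left out of every library, embryo-biased genes still took between 63.0% and 66.6% of the remaining counts in embryos 2 to 5, 87.8% in embryo 1 and between 19.3% and 22.6% in pregnant endometrium. The sizes of these shares moved with the scaling, in a fit that kept embryo 1. With classes set by library size, embryo-biased genes took between 37.1% and 51.1% of all counts in embryos 2 to 5 and between 3.25% and 5.34% in pregnant endometrium.

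Endometrium-biased genes were the counterpart with a smaller range. They took 32.6%, 34.0%, 33.3%, 32.3% and 29.9% of the counts of pregnant endometrium 1 to 5, on average 32.4 ± 1.55% (SD, n = 5). In embryos 1 to 5 they took 0.0618%, 2.39%, 3.55%, 3.59% and 2.46%, a direction again fixed by the choice of the genes. Embryos thus gave at least 68.5% of their counts to genes biased to their own side, whereas pregnant endometrium gave at most 34.0%. This contrast changed with the scaling behind the classes, in a fit that kept embryo 1. Shares by library size without embryo 1 were not computed, so the parts of the scaling and of embryo 1 were not separated. With library size in place of the factors, the genes biased to their own side took between 37.1% and 51.1% of the counts of embryos 2 to 5 and between 38.5% and 43.1% of those of pregnant endometrium, which overlap.

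Shared genes, as classed on the TMM scale, took a larger share of the counts of the endometrium than of the embryo. This direction follows from the scaling, since genes set level by the TMM factors differ in raw share as the factors do. Both shared classes together took between 40.0% and 41.8% of the counts of pregnant endometrium, on average 40.9 ± 0.672% (SD, n = 5). In embryos 2 to 5 they took between 18.9% and 26.3%, on average 22.8 ± 3.68% (SD, n = 4), and in embryo 1 they took 0.890%. With classes set by library size the groups overlapped, between 43.3% and 55.1% in embryos 2 to 5 and between 47.3% and 52.03% in pregnant endometrium. That fit kept embryo 1 and placed no gene within 2-fold, so these are shares of genes not settled. Genes shared within 2-fold took 3.39%, 4.56%, 4.92% and 3.57% of all counts in embryos 2 to 5 and between 7.97% and 8.18% of those of pregnant endometrium. After scaling, the sums of this class were level. They lay between 39459 and 42885 CPM in embryos 2 to 5 and between 39979 and 41578 CPM in pregnant endometrium.

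Restricted genes took a small share on their own side. The 202 embryo-restricted genes held 0.0258%, 0.914%, 1.29%, 1.07% and 0.971% of all counts in embryos 1 to 5, and between 0.00589% and 0.00803% of those of pregnant endometrium. The 569 endometrium-restricted genes took between 2.61% and 2.81% of the counts of pregnant endometrium, on average 2.73 ± 0.0819% (SD, n = 5). In embryos 2 to 5 they took between 0.00631% and 0.00717%, and in embryo 1 0.000581%. The distance between both sides was fixed by the choice of the genes. Within embryos 2 to 5, the 10 highest embryo-restricted genes held between 34.5% and 36.2% of the counts of their class. With classes chosen without embryo 1, embryo-biased genes took between 68.2% and 77.1% of the counts of embryos 2 to 5 and between 19.7% and 24.1% of those of pregnant endometrium, and genes shared within 2-fold took between 9.74% and 13.7% and between 21.2% and 21.7%. Genes below the filter took between 1.02% and 1.19% of the counts in pregnant endometrium and 0.455 ± 0.0485% in embryos 2 to 5 (SD, n = 4).

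**Figure D3:**
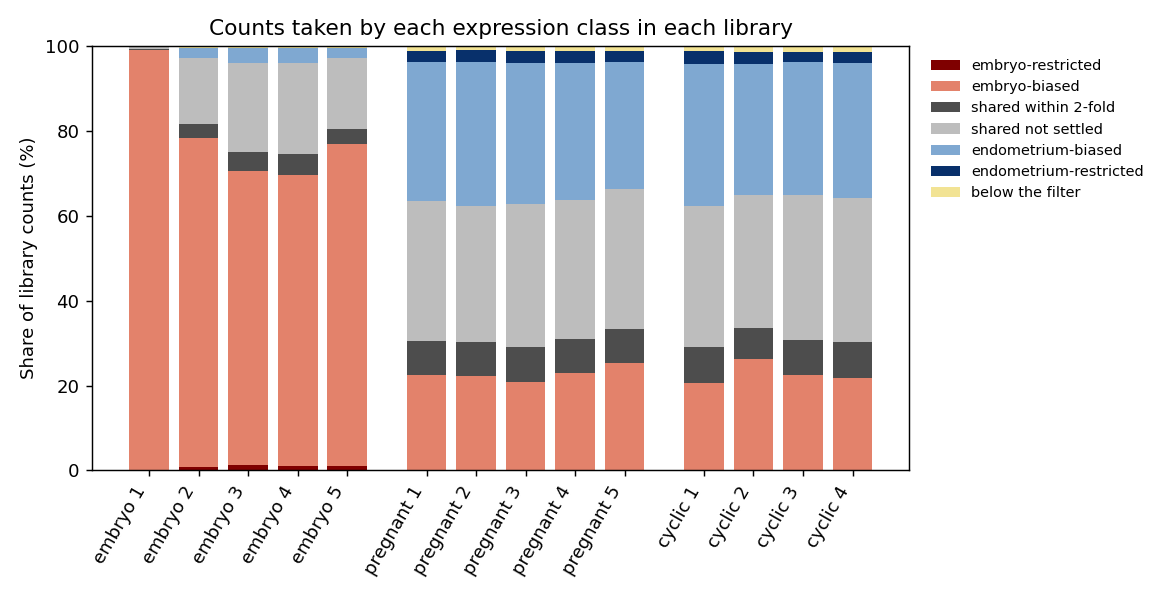
Share of the counts of each library (vertical axis, %) taken by the 6 expression classes and by genes below the filter, with 1 bar for each of the 5 embryos, 5 pregnant and 4 cyclic endometrium samples. Embryo-biased genes fill 68.5% to 99.0% of the embryo bars and 20.7% to 26.2% of the endometrium bars.

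The shares were then measured in libraries that had not chosen the classes. When embryo and endometrium of the same number were held out in turn and the classes were set on the other 8 libraries, again with TMM factors, both embryo classes together took 98.8%, 76.6%, 69.0%, 67.0% and 75.2% of the counts of the held-out embryos 1 to 5, and between 22.1% and 25.03% of those of the held-out endometrium. Both endometrium classes took between 28.7% and 37.3% of the held-out endometrium and between 0.203% and 3.11% of the held-out embryos. Both shared classes took between 39.1% and 44.5% of the held-out endometrium and between 20.2% and 28.2% of the held-out embryos 2 to 5. The held-out shares of embryos and endometrium did not overlap for any of these groups of classes. For the embryo and endometrium classes, each held-out pair came from the same unlike tissues, which favours this outcome. The embryo-restricted class held 206 genes with pair 1 held out, and 82, 86, 83 and 86 genes with pairs 2 to 5 held out. For the shared classes this again follows from the TMM factors. With classes set by library size on all 10 libraries, their shares overlapped between embryos 2 to 5 and pregnant endometrium, as given above.

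Cyclic endometrium, which chose neither the filter nor the classes, resembled pregnant endometrium in its shares. Embryo-biased genes took 20.7%, 26.2%, 22.6% and 21.8% of the counts of cyclic samples 1 to 4, and endometrium-biased genes took between 30.7% and 33.5%. Endometrium-restricted genes took between 2.57% and 3.01%, and 535 of 569 (94.02%) were over 4 scaled CPM in at least 3 of the 4 cyclic samples. Of the 202 embryo-restricted genes, 168 (83.2%) were under 0.5 scaled CPM in at least 3 of the 4 cyclic samples and none was over 4 in as many. Their share of the counts was between 0.00776% and 0.0111% in cyclic endometrium, against 0.00589% to 0.00803% in pregnant endometrium. The genes were chosen as low in the pregnant samples, which favours a lower share there, and the difference was not tested. The shares of counts of the embryo-biased and endometrium-biased classes thus overlapped between both kinds of endometrium.

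The class of a gene varied with its level. The tested genes were divided into quintiles by mean log2 CPM over the 10 libraries. In the lowest quintile 80.6% of genes were called, against 53.4%, 45.8%, 46.3% and 52.8% in the next ones, from low to high. Restricted genes were found almost entirely at the bottom, with 183 of the 202 embryo-restricted (8.14% of that quintile) and 552 of the 569 endometrium-restricted genes (24.6%). A gene that is lacking on 1 side has a low mean, so this follows in part from the measure. The biased classes ran in opposite directions. Embryo-biased genes rose from 14.01% of the lowest to 42.6% of the highest quintile, and endometrium-biased genes fell from 33.9% to 10.2%. Both classes are those of the TMM scale, on which the balance of directions rests, and the quintiles were not repeated with library size. Genes shared within 2-fold were most frequent in the highest quintile, at 13.6%, against 2.00% to 5.78% elsewhere.

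**Figure D4:**
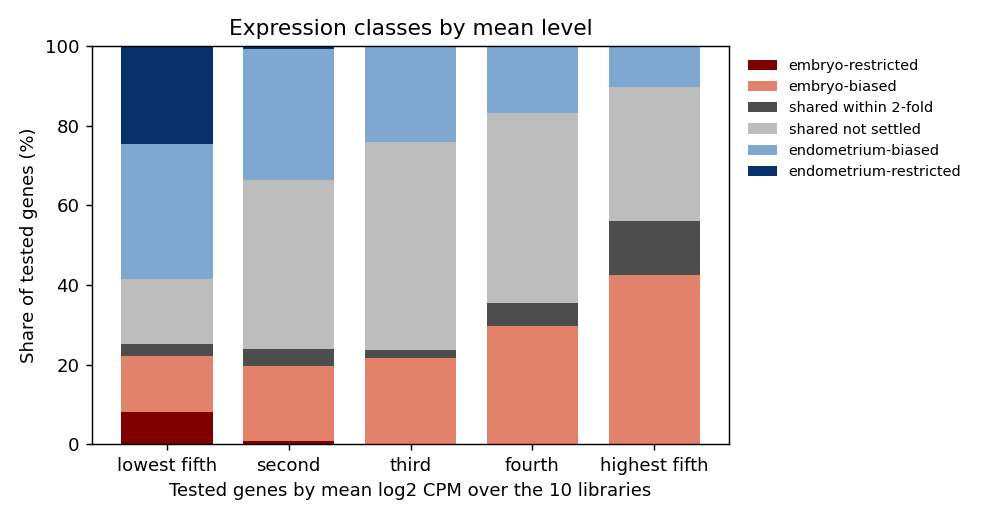
Share of the tested genes (vertical axis, %) in each of the 6 classes, for the genes divided into quintiles by mean log2 CPM over the 10 libraries (horizontal axis). Embryo-biased genes widen from 14.01% to 42.6% towards high levels and endometrium-biased genes narrow from 33.9% to 10.2%.

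The most abundant transcripts of the sides overlapped in part. Among the 100 genes with the highest mean scaled CPM in embryos 2 to 5, 92 were embryo-biased and 8 were shared but not settled, and the numbers were the same when embryo 1 was included. Among the 100 highest genes of pregnant endometrium, 35 were endometrium-biased, 40 were embryo-biased, 19 not settled and 6 shared within 2-fold. Fewer of the most abundant endometrial transcripts were thus biased to their own side than of the embryonic ones, which was not tested. The classes are those of the TMM scale, on which the balance of directions rests. These lists were not repeated with library size. The lists of 100 had 46 genes in common, which is 46% of each, and the lists of the 1000 highest genes had 415 in common, 41.5% of each. No restricted gene was among the 100 highest of either side, and 19 embryo-restricted and 21 endometrium-restricted genes were among the 1000 highest of embryos 2 to 5 and of pregnant endometrium.

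Over all tested genes, embryos varied more from each other than biopsies did. The SD of log2 CPM between libraries, taken per gene, had a median over all tested genes of 0.41 in embryos 2 to 5, 1.57 in embryos 1 to 5, 0.24 in pregnant and 0.32 in cyclic endometrium. For embryo-biased genes the median SD was 0.34 in embryos 2 to 5 and 0.25 in pregnant endometrium. For endometrium-biased genes, which are low in embryos, it was 0.57 and 0.27. Embryo-restricted genes, which are low in endometrium, went the other way, with 0.43 in embryos 2 to 5, 0.81 in pregnant and 0.79 in cyclic endometrium. Across the 11244 genes, which are not independent replicates, Spearman's correlation had a median of 0.955 among embryos 2 to 5, 0.960 among pregnant samples and 0.409 between embryos 2 to 5 and pregnant endometrium. For embryo 1 the median was 0.656 with the other embryos and 0.440 with pregnant endometrium.

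In each of the 4 classes that differ, the gene with the highest mean scaled CPM on its own side is given by its values. Each was chosen as called and as high on that side, and the restricted ones passed the filter through that side alone. Their p-values and the separation of the groups therefore follow in part from the choice and describe the genes only. The highest embryo-restricted gene was ENSECAG00000010239. It had 238, 13566, 17218, 154485 and 13679 counts in embryos 1 to 5 and 15, 0, 33, 2 and 8 counts in pregnant endometrium 1 to 5. Every embryo was above every endometrium sample, and embryo 1 was the lowest of the embryos. The level was 460 ± 218 scaled CPM in embryos (SD, n = 5) and 0.138 ± 0.145 in pregnant endometrium (SD, n = 5), where the floor of 3 counts stands for 0.0383 on average. The log2 difference was 11.67 (SE 0.69, adjusted p = 3.21e-28, edgeR likelihood ratio test), and without embryo 1 it was 11.84. In cyclic endometrium it had 1, 4, 3 and 1 counts.

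The highest embryo-biased gene, ENSECAG00000027689, was also the most counted gene in all 5 embryos. It made up 29.1%, 10.8%, 3.87%, 5.01% and 8.99% of all counts in embryos 1 to 5 and 0.966%, 1.57%, 0.659%, 1.08% and 1.36% of those of pregnant endometrium 1 to 5. The groups did not overlap, and embryo 1 was the highest. The log2 difference was 8.38 (SE 1.16, adjusted p = 6.55e-07, edgeR likelihood ratio test). Without embryo 1, whose small TMM factor raises its scaled values, it was 3.69 (SE 0.39, adjusted p = 1.23e-17, edgeR likelihood ratio test). With the replicate number as a block it was 4.28, and with the block and the edgeR quasi-likelihood test it did not pass (adjusted p = 0.0966). In cyclic endometrium the gene took between 0.407% and 1.88% of the counts.

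On the endometrial side, the highest restricted gene was ENSECAG00000012850. It had 21391, 32646, 29052, 36765 and 33643 counts in pregnant endometrium 1 to 5 and 11, 6, 9, 95 and 3 counts in embryos 1 to 5. Its level was 393 ± 94.1 scaled CPM in pregnant (SD, n = 5) and 396 ± 172 in cyclic endometrium (SD, n = 4). In embryos 2 to 5 it was 0.233 ± 0.108 (SD, n = 4), and in embryo 1 the 11 counts stand for 7.85. The log2 difference was -8.33 (SE 0.84, adjusted p = 3.91e-12, edgeR likelihood ratio test) and -10.60 without embryo 1.

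The highest endometrium-biased gene, ENSECAG00000000866, had the highest mean scaled CPM of all genes in pregnant endometrium. It took 2.90%, 1.28%, 2.26%, 1.34% and 2.22% of the counts of pregnant endometrium 1 to 5 and between 1.35% and 4.31% in cyclic endometrium. In embryos 1 to 5 it had 247, 239, 284, 124 and 40 counts, so embryo 4 held few in spite of its depth. The level was 10178 ± 3563 scaled CPM in pregnant endometrium (SD, n = 5) and 4.78 ± 5.22 in embryos 2 to 5 (SD, n = 4), and 176 in embryo 1. The log2 difference was -8.04 (SE 1.03, adjusted p = 4.17e-08, edgeR likelihood ratio test) and -11.10 without embryo 1.

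**Figure D5:**
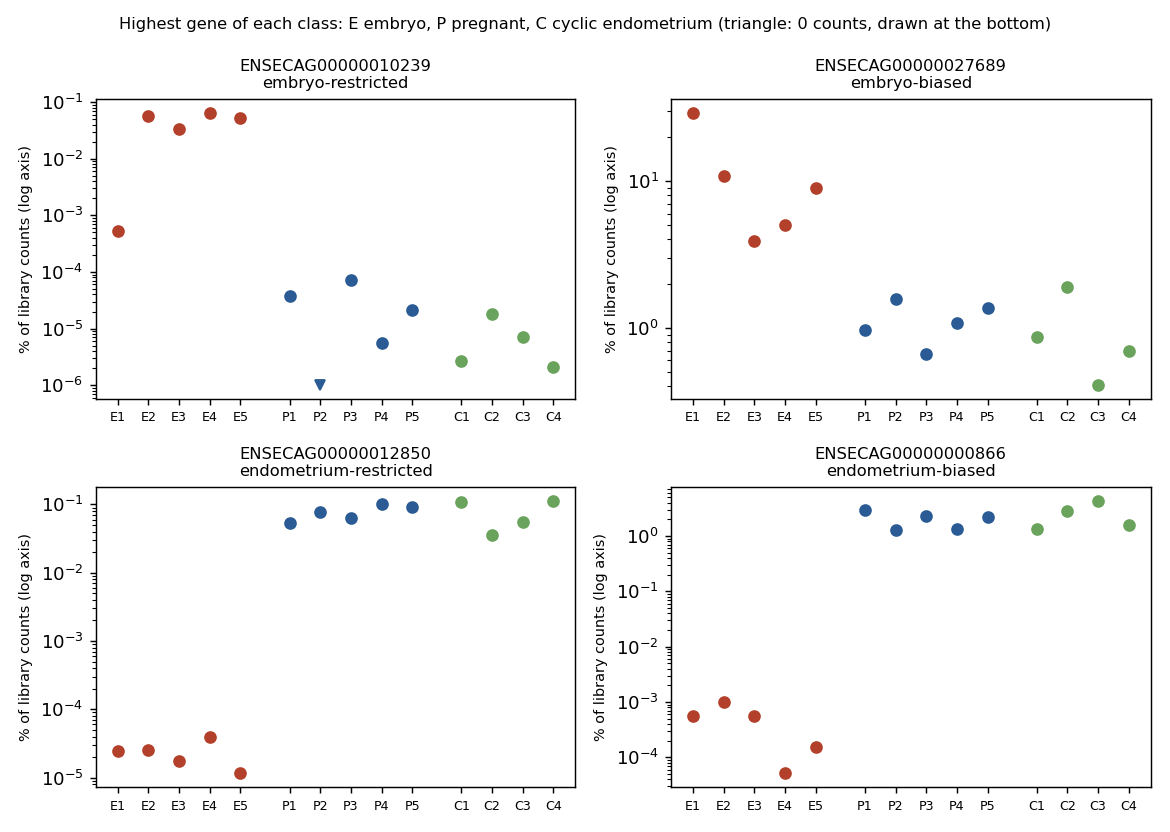
Share of the library counts (vertical axes, %, log scale) of the highest gene of each restricted or biased class in embryos (E1 to E5), pregnant (P1 to P5) and cyclic endometrium (C1 to C4), with 1 point for each library and a triangle for 0 counts. Embryos and pregnant endometrium do not overlap in any panel, which the choice of the genes favours, and ENSECAG00000010239 is lowest among the embryos in embryo 1.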

How the data were processed

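Messenger RNA of 5 embryos, 5 pregnant and 4 cyclic endometrium samples had been sequenced, and groups and replicate numbers were taken from the sample titles. The authors deposited raw read counts per Ensembl gene. According to the methods of the study and the submitters' processing notes, adapters were trimmed with cutadapt 1.11, and reads were mapped to the EquCab reference and counted on its genes in CLC Genomics Workbench. The libraries were directional, but use of strand and handling of reads with several matches are not given in the sources used here, so counts of overlapping genes and near-identical copies are uncertain.

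Counts were used as deposited. In R 4.3.3 with edgeR 4.0.16, TMM factors were computed, the filter kept genes above 4 TMM-scaled CPM in at least 4 of the 10 libraries, and library sizes and factors were computed again. A negative binomial model without a block was fitted to the 10 libraries, and the likelihood ratio test was applied, as the study states. Calls needed a p below 0.05 after Benjamini-Hochberg adjustment over all tested genes and a change over 2-fold. Intervals were estimate ± 1.96 SE. A prior count of 2 went into log2 CPM. Cyclic libraries were put on the same scale afterwards. Members, classes and limits were chosen with earlier results of these data known. Named genes were those with the highest mean scaled CPM on their own side in each restricted or biased class, since neither the deposited counts nor the RefSeq table paired identifiers with symbols. Names in the supplementary material of the study were not used, so the gene lists and markers prepared by symbol were left out. A planned permutation test of class shares between embryos and cyclic endometrium was left out, because the embryos had chosen the classes.

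Total counts ranged from 21.8 to 240 M. Shares of single libraries have 95% Wilson intervals no wider than ± 0.0195 percentage points, and the floor is 3 counts. Both cover counting error only, since reads carried no molecular identifiers. None of the 45 pairs of libraries agreed within sampling noise (smallest chi-square 52.1 per degree of freedom). Embryos and pregnant biopsies came from the same pregnant cycles, and cyclic biopsies from other cycles of the same mares. On counts simulated for the 11244 genes, with 200 changed, the likelihood ratio test recovered 62% of 4-fold and 87% of 16-fold changes, with 14.9% false calls, and the quasi-likelihood test recovered 49% and 87%, with 4.23%. The alternatives were the quasi-likelihood test, DESeq2 1.42.0, a replicate block, other scalings, filters and limits, removal of the 10 genes and omission of each library. Library size without embryo 1 was added after the data were seen.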

Additional observations from a re-analysis of the deposited data

Results flagged for a closer look

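In each group of 4 or 5 libraries, the highest and the lowest value were compared with their nearest neighbour by Dixon's gap test. Of 56 groups of values, 14 had an end value set apart from the rest (2.8 would be so by chance, at 1 in 20), and 11 of the 14 were embryo 1. Many of the values are computed from the same counts and are not independent. Several of those for embryo 1 measure how few genes hold its counts, the property for which it had already been set apart. The number by chance can therefore not serve as a test of embryo 1, and the flags only list where its values lie.

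For embryo 1, the TMM factor was 0.0315 (nearest embryo 0.843), and 10 genes reached 90% of its counts (nearest 3053). Its 10 most counted genes took 91.7% of its counts, against 33.9% for the leading 10 of the nearest embryo and 33.2% for the same 10 genes there. Of its counts, genes shared but not settled took 0.743% (nearest 15.6%), endometrium-restricted genes 0.000581% (nearest 0.00631%) and genes below the filter 0.0316% (nearest 0.394%). It had at least 1 count for 69.3% of the embryo-restricted genes, against 100% in the other embryos, a contrast that follows largely from the class limits. Its level was 9244490 scaled CPM for ENSECAG00000027689 (nearest 128419), 7.85 for ENSECAG00000012850 (nearest 0.345) and 176 for ENSECAG00000000866 (nearest 12.1), where 1 count stands for 0.713 scaled CPM.

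The total of embryo 4 was 239.795 M counts, and the second deepest embryo had 50.8 M. In pregnant endometrium 3, genes shared within 2-fold took 8.18% of the counts (nearest sample 8.01%). In cyclic endometrium 4, 99.8% of the endometrium-restricted genes had at least 1 count, against 100% in the other cyclic samples.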

How the results depend on the processing

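Class sizes depended on the scaling, on the limit for absence and on embryo 1. The cause was not tested where none is named. With library size in place of TMM factors, the median log2 change of all genes moved by -1.13, 754 genes were higher in the embryo, and the classes held 130 embryo-restricted, 624 embryo-biased, 0 within 2-fold, 6734 not settled and 937 endometrium-restricted genes. Embryo-biased genes then took 54.0% of embryo and 4.64% of endometrial counts, both shared classes 40.5% and 49.5%, and endometrium-biased and endometrium-restricted genes 41.5% and 3.79% of endometrial counts. In the same setting without embryo 1, 1636 genes were higher in the embryo and 6220 in the endometrium, and the classes, from embryo- to endometrium-restricted, held 130, 1506, 1994, 2193, 5273 and 947 genes. Without a filter, 9587 genes were called, 5274 higher in the endometrium. With the 10 leading genes of embryo 1 removed before the fit, embryo-biased, both shared and endometrium-restricted genes took 20.9%, 42.4% and 2.33% of endometrial counts. With absence under 0.1 CPM, 68 genes were embryo-restricted (0.237% of embryo counts) and 297 endometrium-restricted (0.944% of endometrial counts), with 34.2% for endometrium-biased genes. With absence under 1 CPM, 312 genes were embryo-restricted, and endometrium-biased and endometrium-restricted genes took 30.7% and 4.43%. With the limits met in all 5 libraries of each side, 61 and 255 genes were restricted.

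With 1 library left out at a time, the numbers of called genes stayed between 5595 and 6969. The embryo-restricted class held between 78 and 223 genes, with 80, 80, 78 and 81 without embryos 2, 3, 4 and 5, where a gene high in embryos alone needs embryo 1 to pass the filter of 4 libraries. The class within 2-fold held between 350 and 2585 genes, with the highest number without embryo 1 and 354, 350, 369, 370 and 371 without pregnant endometrium 1 to 5, and the class not settled between 2256 and 4966. Of endometrial counts, embryo-biased genes took between 21.2% and 25.6%, both shared classes between 39.5% and 43.8%, endometrium-biased genes between 29.4% and 34.9% and endometrium-restricted genes between 2.68% and 3.47%.

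The correlation of deviations between same-numbered embryos and endometria was 0.148 in 1 of 5 pairs, and the others lay between -0.0256 and 0.00985. Between different tissues, such values cannot decide whether a number marks a mare. The sources used here do not state that the number of an embryo is that of its mare, although embryo and biopsy came from the same mares. The block is therefore given beside the fit without it. With the replicate block, 5769 genes were called, 2448 higher in the embryo and 3321 in the endometrium, and 315 were within 2-fold. With the replicate block and the quasi-likelihood test, 4723 genes were called, and ENSECAG00000027689 was no longer called (log2 change 4.28, adjusted p = 0.0966). Of the 86 tests of the 4 named genes under alternatives, the other 85 kept direction and call. DESeq2 gave no adjusted p for ENSECAG00000027689. The quasi-likelihood test without block called 5682 genes and DESeq2 called 6456, with no direction turned among the main calls.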
